A study of Rattus norvegicus with 6 samples.

Results

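The microsomal cytochromes P450 Cyp2e1 and Cyp1a2 and their redox partners Por and Cyb5a were followed in rat liver through 12 probe sets, 3 for each of the 4 genes, out of 8740 probe sets on the array that are not array controls. Every probe set whose only gene symbol in the platform annotation is one of these names was taken, without use of a measured value. The 4 genes themselves were chosen with earlier results of these data known. RNA was from 3 NASH livers and 3 Control livers of male Sprague Dawley rats, each hybridized to an Affymetrix Rat Genome U34A array. The NASH group, named for nonalcoholic steatohepatitis, received a liquid diet with 70% corn oil for 3 weeks, with 220 kcal daily for each kg of metabolic body weight. The Control group received one with 5% corn oil at 187 kcal on the same basis for 3 weeks, and all rats were fed by total enteral nutrition. Fat content and energy supply differ together between the groups, so the comparison is of whole diets. Whether each sample was a different animal is not stated in the sources used here, and p-values therefore reflect only how much these samples vary, which may be technical.

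Cytochromes P450 of the endoplasmic reticulum split molecular oxygen at a haem iron and insert an oxygen atom into their substrate. Por, NADPH-cytochrome P450 reductase, passes electrons from NADPH to every microsomal P450, and Cyb5a, cytochrome b5, can supply electrons to some of them and also serves the fatty acid desaturases. Cyp2e1 oxidizes ethanol, acetone, fatty acids and small toxicants, is known to leak reactive oxygen, and has long been studied in steatohepatitis. Cyp1a2 oxidizes caffeine and aromatic amines and is a target of the aryl hydrocarbon receptor. In the liver lobule both enzymes are concentrated in the hepatocytes around the central vein.

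The tissue recorded for all 6 arrays was liver, and 13 hepatocyte markers, such as Alb, had summed normalized signals of 51174 to 54053 in NASH livers and 50742 to 54032 in Control livers. Quantile normalization gives the brightest probe sets nearly the same values on every array. These sums therefore cannot show whether hepatocyte content was equal. NASH 2 stood apart. Its summed brown fat markers reached 3225, against 154 and 196 in the other NASH livers and 88.9 to 103 in Control livers, and its 11 skeletal muscle markers reached 2737, against 148 to 254 in the other 5 arrays. The defining genes Ucp1 (1100 in NASH 2, at most 15.97 elsewhere) and Acta1 (1322, at most 18.9 elsewhere) were dim in every other array. The instrument record of NASH 2 listed 1 scan, where the other 5 records listed 2. Control 2 was highest for the clock output gene Dbp, with a deposited signal of 127 against at most 10.1 elsewhere. Control 2 also stood apart from Control 1 and Control 3 in genes unrelated to the clock list. Among them were Sds, with deposited signals of 1691 against 43.3 and 81.4, and Sqle, with 13.4 against 96.8 and 109. The fluidics wash entry of the instrument record was filled in for NASH 1, NASH 2, Control 1 and Control 3 and blank for NASH 3 and Control 2. Trimmed mean signals of the deposited arrays ran from 73.1 to 116, so the arrays were quantile normalized before testing. In whole tissue, fewer cells of a type and less RNA per cell cannot be told apart.

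None of the 12 probe sets was called. NASH and Control were compared with limma over 5244 probe sets above an intensity filter, which all 12 passed, and a call required a Benjamini-Hochberg adjusted p under 0.05. Of the 5244, 7 were called, or 0.133% (higher in NASH 0.0953%, lower 0.0381%), and adjusted p-values of the 12 lay between 0.456 and 0.981. At an unadjusted limma p under 0.05 there were 3 of 12, all of them Cyp1a2, where 7.89% of all tested probe sets were past that mark. The difference was positive for 10 of the 12, with a median of 0.29 on the log2 scale, against a positive share of 47.1% and a median of −0.02 over all tested probe sets. Probe sets of the same gene share their transcript and their 6 samples, so the 12 are not independent. All differences below are NASH minus Control on the scale of log2(quantile-normalized signal + 2.29).

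Cyp2e1 transcript was abundant in every liver and did not separate the diets. Its brightest probe set, M20131cds_s_at, had deposited signals of 3994, 2998 and 3125 in NASH 1, 2 and 3, against 3157, 3534 and 3090.5 in Control 1, 2 and 3. After quantile normalization it had log2 values of 11.86, 11.70 and 11.98 in NASH livers and 11.30, 11.95 and 11.61 in Control livers. The 3 NASH values fell between the Control extremes except NASH 3, which lay just above Control 2. The difference was 0.23 ± 0.17 (standard error, n = 3 per group; limma adjusted p = 0.738), or 1.17-fold, with a 95% interval from 0.888-fold to 1.54-fold.

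The other Cyp2e1 probe sets gave similar sizes. AF056333_s_at had deposited signals of 2895, 2368 and 2504 in NASH livers, against 2166, 2359 and 2203 in Control livers. In deposited signals all 3 NASH values were above all 3 Control values, though NASH 2 and Control 2 were nearly level, and after normalization Control 2 lay above NASH 2. Its difference was 0.34 ± 0.17 (limma adjusted p = 0.621, 95% interval −0.05 to 0.74). S48325_s_at had deposited signals of 2611, 1801 and 2009 in NASH livers, against 1715, 2560 and 1466 in Control livers. Here Control 2 was the highest array on the normalized scale and the other Control arrays were the lowest, and the difference was 0.34 ± 0.29 (limma adjusted p = 0.780).

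The Cyp2e1 difference depended on the Control arrays taken. It was 0.06 without Control 1, the lowest array for the brightest probe set, and 0.39 without Control 2 (limma adjusted p = 0.508). Without Control 2 the difference of S48325_s_at was 0.70 (limma adjusted p = 0.238). Without NASH 2 the brightest probe set differed by 0.30, and without both Control 2 and NASH 2 by 0.46 (limma adjusted p = 0.547). Within the 4 arrays whose wash entry was filled in it was 0.33, and NASH 3 minus Control 2, the pair left blank, gave 0.03 for this probe set and −0.23 for S48325_s_at. With no scaling between arrays the brightest probe set differed by 0.04, in a setting where the median of all tested probe sets moved to −0.17. With array weights the differences were 0.43 for M20131cds_s_at, 0.54 for AF056333_s_at and 0.57 for S48325_s_at (limma adjusted p = 0.374, 0.263 and 0.410).

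**Figure D1:**
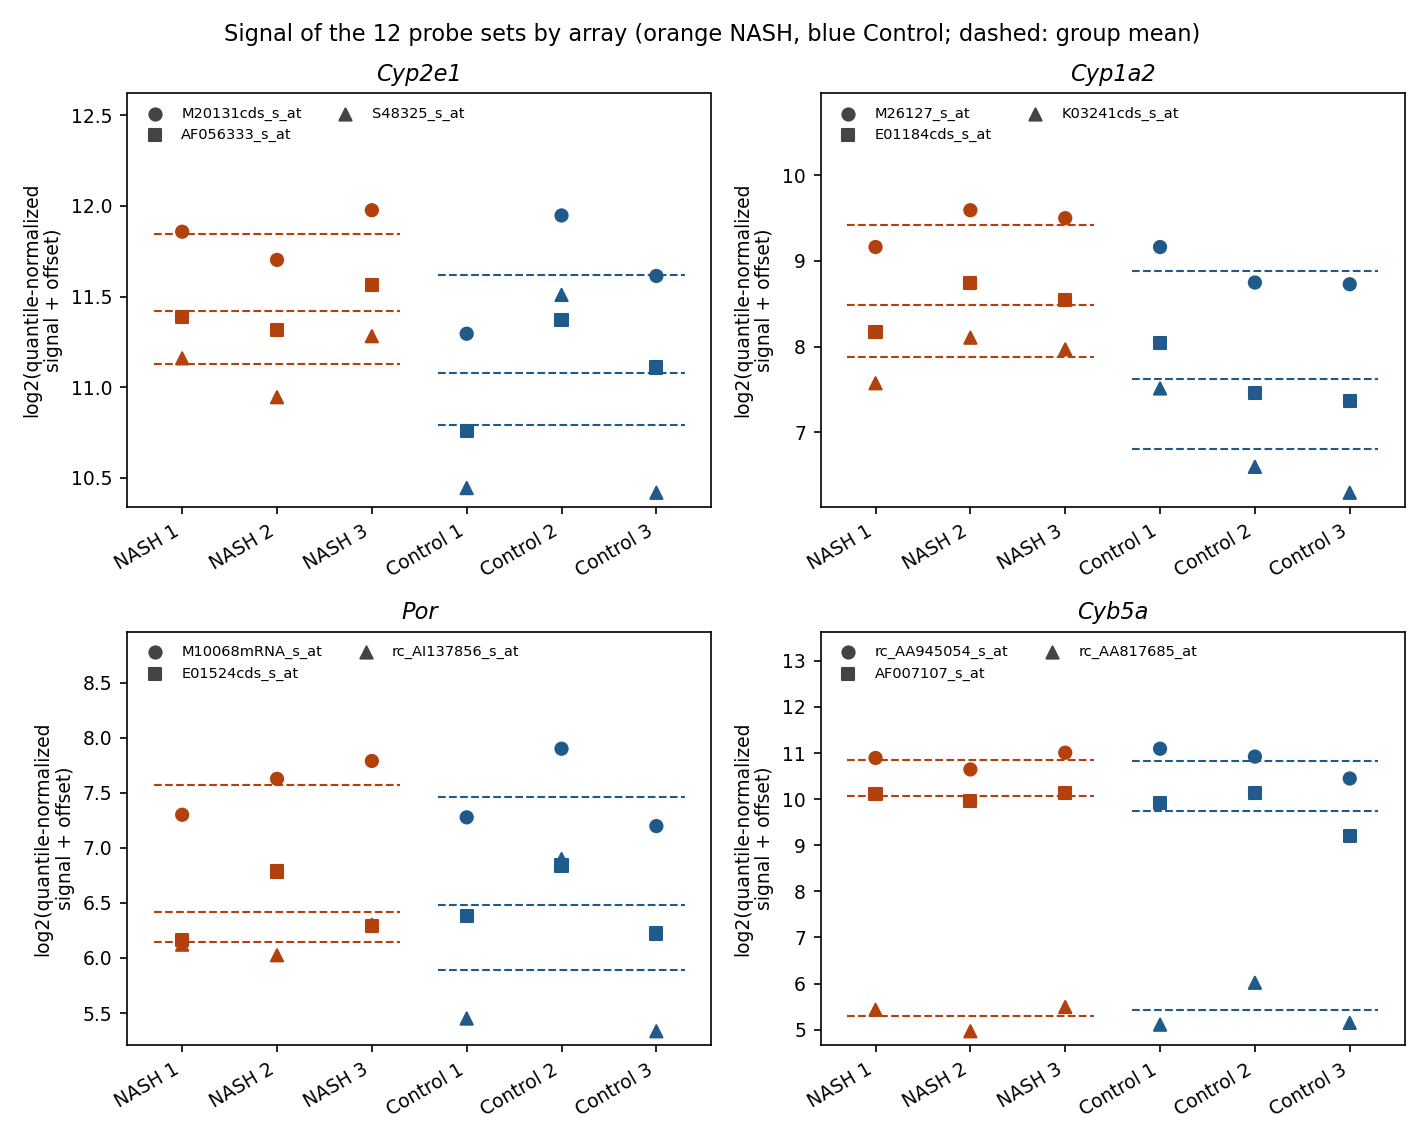
Log2 of the quantile-normalized signal plus the offset (vertical axes) for each array (horizontal axes), 1 panel per gene, with NASH in orange, Control in blue, a marker shape per probe set and dashed lines at the group means (n = 3). All 3 Cyp1a2 probe sets are lower in Control 2 and Control 3 than in any NASH array, while Control 1 sits beside NASH 1, and the groups overlap for all Cyp2e1, Por and Cyb5a probe sets.

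Cyp1a2 had the largest differences among the 12 probe sets, higher in NASH livers with every probe set, and none passed the threshold. K03241cds_s_at had deposited signals of 208, 263 and 193 in NASH 1, 2 and 3, against 219, 91.0 and 75.8 in Control 1, 2 and 3. Control 1 was as bright as the NASH livers, and Control 2 and Control 3 were well below all of them. After normalization the log2 values were 7.57, 8.10 and 7.97 in NASH livers and 7.51, 6.60 and 6.29 in Control livers, which do not overlap by a margin set by NASH 1 and Control 1. The difference was 1.08 ± 0.33, or 2.11-fold (95% interval 1.24-fold to 3.61-fold; limma adjusted p = 0.492). Its unadjusted limma p, not an exact one, was 0.0121.

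E01184cds_s_at showed the same order of arrays. Its deposited signals were 316, 397 and 294 in NASH livers, against 323, 159 and 168 in Control livers. The normalized groups again did not overlap, and the difference was 0.86 ± 0.26, or 1.82-fold (limma adjusted p = 0.456). Its unadjusted limma p, not an exact one, was 0.00969. The brightest Cyp1a2 probe set, M26127_s_at, had deposited signals of 668, 685 and 562 in NASH livers, against 707, 371 and 427 in Control livers. NASH 1 and Control 1 coincided at a log2 value of 9.16, so the groups met, and the difference was 0.54 ± 0.20, or 1.45-fold (95% interval 1.05-fold to 2.01-fold; limma adjusted p = 0.581).

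Groups that do not overlap were therefore found for 2 of the 12 probe sets, both of Cyp1a2 and both higher in NASH, where 14.3% of all tested probe sets had such groups and 6.54% had them with NASH higher and 7.72% with NASH lower. The exact permutation test of 3 against 3 values, two-sided, gave p = 0.1 for these 2 probe sets, the smallest it can give, and p = 0.2 for M26127_s_at. In deposited signals, with no scaling, the groups overlapped for all 3 Cyp1a2 probe sets because Control 1 was among the brighter arrays.

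The sign of the Cyp1a2 difference held under the 25 alternatives run for its brightest probe set and the 21 run for each of the others. Those that change only the filter, variance model, block or test leave the difference as it was, so they could not turn its sign. Leaving out each array in turn gave 0.45 (without NASH 2) to 0.68 (without Control 1) for M26127_s_at and 0.83 (without Control 3) to 1.44 (without Control 1) for K03241cds_s_at. Without Control 1 the lowest adjusted p of the 3 probe sets was 0.210, for K03241cds_s_at. For M26127_s_at the difference was 0.39 without both Control 2 and NASH 2, 0.43 where the wash entry was filled in, 0.75 where it was blank and 0.40 with no scaling. With array weights the differences were 0.38 for M26127_s_at, 0.62 for E01184cds_s_at and 0.70 for K03241cds_s_at. NASH 2, where fat and muscle markers were high, had the highest normalized Cyp1a2 value with every probe set. Without it the differences were 0.45 for M26127_s_at, 0.74 for E01184cds_s_at and 0.97 for K03241cds_s_at.

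The 3 Cyp1a2 probe sets ranked the arrays alike, from NASH 2 and NASH 3 at the top to Control 2 and Control 3 at the bottom. Over the 6 arrays, Pearson's r between M26127_s_at and E01184cds_s_at was 0.995 and Spearman's rho 0.986 (exact permutation p = 0.00278 and 0.00556, two-sided). After Benjamini-Hochberg adjustment over 18 pairs these were 0.0125 and 0.0333, and r was 0.991 without the 2 arrays farthest from the median. The deviations from group means were correlated at 0.991 for this pair and at 0.931 and 0.962 for the other Cyp1a2 pairs. The probe sets thus varied together inside each group as well as between groups. The size of the gap was not the same, with differences of 0.54, 0.86 and 1.08. The suffix s in an identifier, carried by 11 of the 12 probe sets, marks probes that may match several related transcripts.

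**Figure D2:**
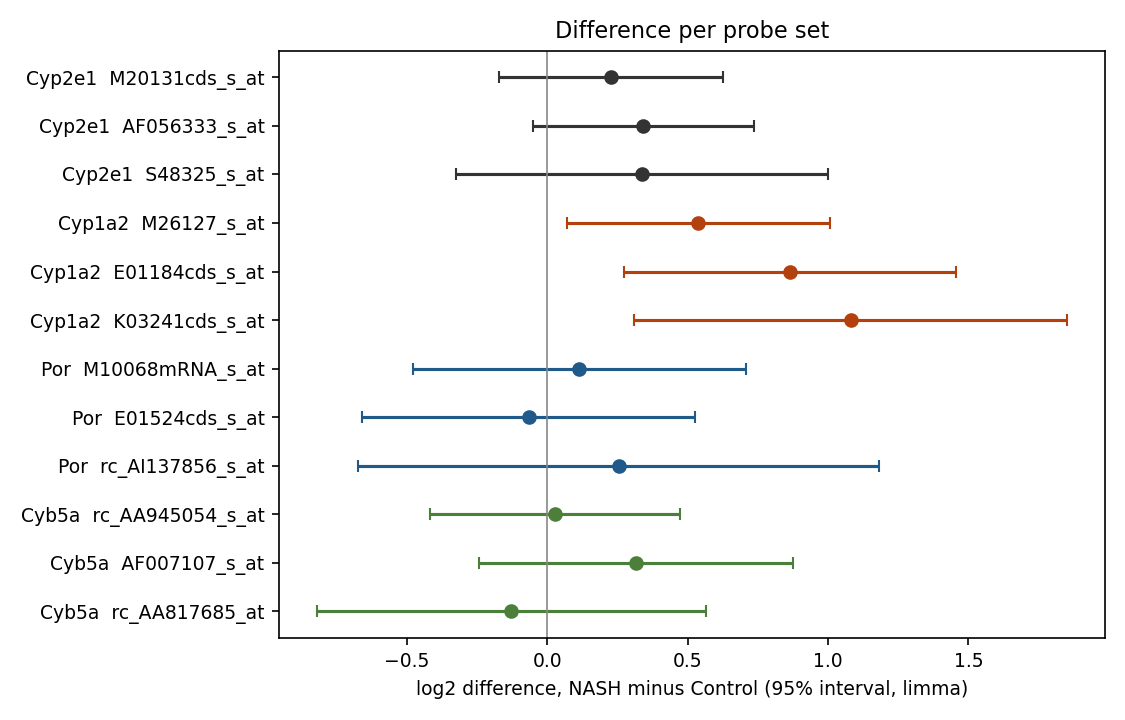
Difference of NASH minus Control (horizontal axis, log2 scale) with its 95% interval from limma for each of the 12 probe sets, 3 arrays per group. The unadjusted intervals of the 3 Cyp1a2 probe sets lie above 0, from 0.07 at the lowest bound, and those of the other 9 include 0.

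Por, the reductase that all microsomal P450s share, did not separate the diets. The brightest probe set, M10068mRNA_s_at, had deposited signals of 169.3, 190.2 and 169.1 in NASH 1, 2 and 3, against 184, 209 and 147 in Control 1, 2 and 3. Control 2 was the highest and Control 3 the lowest, with all NASH arrays between them. The difference was 0.11 ± 0.26 (limma adjusted p = 0.926), with a 95% interval from 0.717-fold to 1.63-fold. E01524cds_s_at had deposited signals of 73.9, 108 and 56.7 in NASH livers, against 95.5, 107 and 71.7 in Control livers, and a difference of −0.07 ± 0.26 (limma adjusted p = 0.958).

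The dimmest Por probe set moved most with Control 2. For rc_AI137856_s_at the deposited signals were 71.1, 64.9 and 57.1 in NASH livers, against 47.8, 111 and 36.2 in Control livers. NASH values spanned 0.28 on the log2 scale and Control values 1.56. The difference was 0.25 ± 0.40 with all arrays (limma adjusted p = 0.895), 0.76 without Control 2 (limma adjusted p = 0.356) and −0.03 without Control 3. For the brightest probe set it was 0.33 without Control 2, −0.02 without Control 3 and 0.09 without NASH 2. It was 0.23 where the wash entry was filled in and −0.11 where it was blank. The other Por probe sets differed by more between these array sets, with 0.18 and −0.55 for E01524cds_s_at and 0.68 and −0.60 for rc_AI137856_s_at.

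Cyb5a, the electron carrier cytochrome b5, was a strong signal with 2 of its probe sets and a dim one with the remaining one. The brightest, rc_AA945054_s_at, had deposited signals of 2137, 1386 and 1723 in NASH 1, 2 and 3, against 2729.8, 1799.9 and 1497 in Control 1, 2 and 3. Control 1 was the highest array and Control 3 the lowest on the normalized scale, with the NASH arrays between them. The difference was 0.03 ± 0.19 (limma adjusted p = 0.981), with a 95% interval from 0.748-fold to 1.39-fold. AF007107_s_at had deposited signals of 1221, 879.6 and 859 in NASH livers, against 1244, 1003 and 605 in Control livers, and a difference of 0.32 ± 0.24 (limma adjusted p = 0.739). That difference was 0.04 without Control 3 and 0.50 without Control 2.

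The dim Cyb5a probe set, rc_AA817685_at, had the opposite sign. Its deposited signals were 42.7, 30.9 and 31.3 in NASH livers, against 36.7, 64.5 and 31.1 in Control livers. Control 2 alone stood above the rest, and the difference was −0.13 ± 0.30 with all arrays (limma adjusted p = 0.929) and 0.17 without Control 2. For the brightest probe set the sign turned with other scalings: the difference was −0.18 with no scaling, −0.04 at a common median and −0.01 at a common trimmed mean. It was 0.13 without NASH 2 and −0.16 without Control 3, and −0.0021 where the wash entry was filled in against 0.08 where it was blank.

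**Figure D3:**
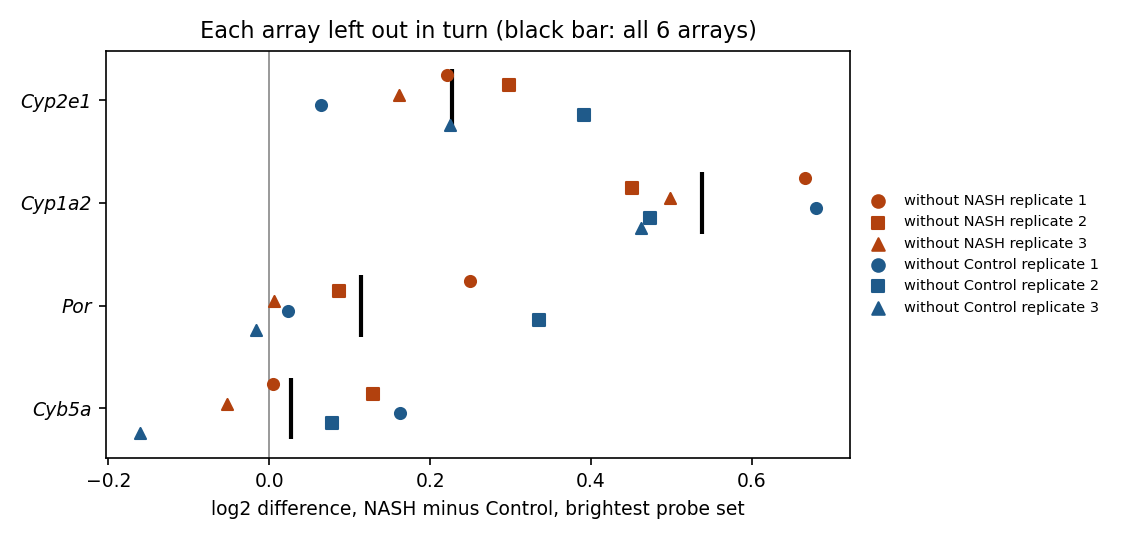
Difference of NASH minus Control (horizontal axis, log2 scale) of the brightest probe set of each gene with each array left out in turn, orange for a NASH array and blue for a Control array left out, and a black bar for all 6 arrays. Cyp1a2 lies between 0.45 and 0.68, Cyp2e1 between 0.06 and 0.39, and Por and Cyb5a on both sides of 0.

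The genes did not follow a common order of arrays. Mean deviations over each gene's 3 probe sets put Control 2 at 0.29 for Cyp2e1, 0.55 for Por and 0.32 for Cyb5a, and at −0.58 for Cyp1a2. Control 2 held the highest value for 5 of the 12 probe sets and the lowest for none, and Control 3 the lowest for 8 and the highest for none. NASH 2 had the highest mean deviation of Cyp1a2, 0.63, and the lowest of the NASH livers for Cyb5a, −0.18. Between the brightest probe sets of different genes, the highest correlation over the 6 arrays was that of Cyp2e1 with Por, with r = 0.688 and rho = 0.829 (exact permutation p = 0.121 and 0.0583; 0.242 and 0.15 adjusted over 18 pairs). It was 0.637 without the 2 arrays farthest from the median of Cyp2e1. For Cyp2e1 and Cyp1a2, r was 0.07 and rho 0.23 (exact permutation p = 0.911 and 0.667; 0.961 and 0.706 adjusted), and r was −0.16 without the farthest 2.

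Correlations between probe sets of 1 gene were lower for the redox partners than for Cyp1a2, a difference that was not tested. Over all pairs of a gene, r ran from 0.976 to 0.995 for Cyp1a2 and from 0.827 to 0.968 for Cyp2e1. It ran from 0.557 to 0.877 for Por and from 0.385 to 0.775 for Cyb5a. For the lowest pair of each of these genes, in that order, r without the 2 farthest arrays was 0.981, 0.336, −0.289 and −0.667. For Cyp2e1, r between M20131cds_s_at and AF056333_s_at was 0.968 and rho 0.943 (exact permutation p = 0.00278 and 0.0167; 0.0125 and 0.06 adjusted), and r was 0.853 without the farthest 2 arrays. For Por, M10068mRNA_s_at and E01524cds_s_at had r = 0.680 and rho = 0.6 (exact permutation p = 0.175 and 0.242; 0.315 and 0.435 adjusted), and r = 0.925 without the farthest 2. For Cyb5a, the 2 brighter probe sets had r = 0.775 and rho = 0.429 (exact permutation p = 0.0597 and 0.419; 0.134 and 0.686 adjusted). Without the 2 arrays farthest from the median of rc_AA945054_s_at that r was −0.80, and the deviations from group means correlated at 0.855. Dropping the extreme arrays narrows the range and leaves few points, so these values cannot decide what the relation rests on.

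**Figure D4:**
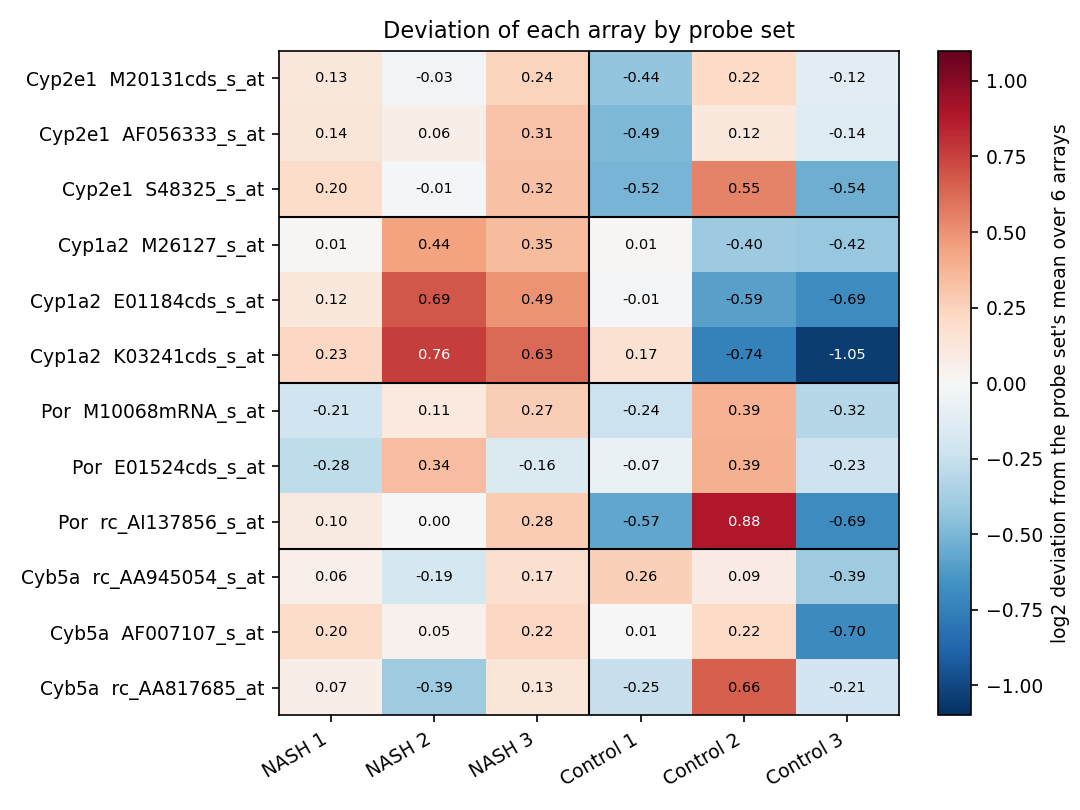
Deviation of each array (columns) from the probe set's mean over the 6 arrays (rows, 12 probe sets by gene), in log2 units and printed in each cell, with NASH arrays on the left. Control 2 is above the mean for Cyp2e1 and Por and below it for Cyp1a2, and Control 3 is below the mean in every row.

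The spread was wider among Control livers. The Control range exceeded the NASH range for 11 of the 12 probe sets, or 91.7%, against 64.2% of all tested probe sets, and the exception was E01524cds_s_at of Por, with ranges of 0.6190 in NASH and 0.6184 in Control livers. For M20131cds_s_at of Cyp2e1 the range was 0.27 in NASH livers and 0.65 in Control livers. For AF007107_s_at of Cyb5a it was 0.18 in NASH livers and 0.92 in Control livers. The residual standard deviation of M20131cds_s_at was 0.25 on the log2 scale, with 66.0% of tested probe sets more variable, and that of rc_AI137856_s_at was 0.62, with 12.8% more variable.

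Within-array ratios were used to ask whether 2 members changed unequally, since a factor common to an array cancels in them. The log2 ratio of Cyp1a2 over Cyb5a, from the brightest probe sets, was −1.43 ± 0.35 in NASH livers and −1.94 ± 0.23 in Control livers (SD, n = 3 each). The difference of 0.51 had an exact permutation p of 0.2, two-sided, and 0.72 adjusted over the 6 pairs of genes. With no scaling the groups of this ratio did not overlap and the difference was 0.57 (exact permutation p = 0.1, 0.6 adjusted). Cyp1a2 over Por differed by 0.42 (exact permutation p = 0.3) and Cyp2e1 over Cyp1a2 by −0.31 (p = 0.4), and the ratios without Cyp1a2 differed by 0.09 to 0.20 (p from 0.5 to 0.9). Groups overlapped for all 6 ratios after quantile normalization.

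Other partners of electron transfer and the enzymes of haem supply held no call among 12 measured genes, 8 of them higher and 4 lower in NASH, with a median difference of 0.14 (0.29 without NASH 2). At the smallest p-values were Cyb5b, the outer mitochondrial membrane form of cytochrome b5, at 0.87 ± 0.42 (limma adjusted p = 0.621), Fdx1, ferredoxin of mitochondrial P450s, at 0.54 ± 0.27 (0.621), and Hmox1, the haem-degrading oxygenase, at 0.37 ± 0.20 (0.643). The second Cyb5b probe set differed by 0.15, the second Hmox1 probe set by 0.60, Cyb5b by 0.35 without Control 2 and Fdx1 by 0.27 without NASH 3. Cyb5r3, the reductase that feeds cytochrome b5 from NADH, differed by −0.22 with its brightest probe set (limma adjusted p = 0.731) and by −0.06 to 0.15 with its other 4.

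The next list held 12 measured enzymes that take electrons from Por or cytochrome b5 outside drug metabolism, together with the fatty acid elongase Elovl5, which is not such an acceptor, and 1 of these 13 was called. Scd, the desaturase supplied by cytochrome b5, had deposited signals of 459, 244 and 78.0 in NASH livers, against 5979, 2143 and 5443 in Control livers, and fell by 4.13 on the log2 scale (± 0.49, limma adjusted p = 0.0341). Every NASH liver was far below every Control liver. The call was kept without NASH 2 and lost without any other array (limma adjusted p from 0.0540 to 0.130), while the difference stayed between −4.56 and −3.60. It was also lost with no filter (limma adjusted p = 0.0676), without the variance trend (0.0760) and with the replicate block (0.0810). The second Scd probe set differed by −4.83 (limma adjusted p = 0.0570). The list held 8 higher and 5 lower genes with a median of 0.58, and the median was 0.18 without Control 2. Leaving out Elovl5 gave 7 higher and 5 lower with a median of 0.48. Cyp4a1, Msmo1 and Cyp17a1 had the smallest p-values after Scd. They differed by 1.71, 1.37 and 1.09 (limma adjusted p = 0.387, 0.442 and 0.456). The other Cyp4a1 probe sets differed by 1.74 and 1.81, and the other Msmo1 probe set by 1.72 (limma adjusted p = 0.197). Without NASH 2, and without both Control 2 and NASH 2, 1 list member was called higher in NASH. Sqle and Cyp51, sterol synthesis enzymes that take electrons from Por, differed by 2.07 and 0.74 (limma adjusted p = 0.538 and 0.707). Without Control 2 these were 1.14 and 0.18, and the other 4 Cyp51 probe sets differed by 0.12 to 1.24 with all arrays.

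Of 22 tested P450s of drug metabolism other than Cyp2e1 and Cyp1a2, 17 were higher and 5 lower in NASH, none called, with a median of 0.16. The median was 0.41 without NASH 2, with 1 call, and 0.32 without Control 2, where 23 were tested. With no scaling the counts were 11 and 11 and the median 0.03, where that of all tested probe sets was −0.17. Cyp3a9, Cyp2a1 and Cyp2b2, enzymes of steroid and drug hydroxylation, had the smallest p-values. They differed by 1.29, 0.84 and 1.46 (limma adjusted p = 0.197, 0.327 and 0.387). Cyp2b2 differed by 1.93 without NASH 2 and was then called (limma adjusted p = 0.0133). Cyp1a1, the closest relative of Cyp1a2, lay below the intensity filter and was not tested, with deposited signals of 2.86, 2.87 and 1.89 in NASH livers and 3.16, 5.64 and 3.07 in Control livers. It was low in all 6 arrays, so these signals cannot show whether it varied with Cyp1a2, which was not tested.

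Targets of the aryl hydrocarbon receptor other than Cyp1a2 were few. Of 4 on the array, Cyp1a1 and Cyp1b1 lay below the filter, and the aldehyde dehydrogenase Aldh3a1 and the quinone reductase Nqo1 differed by 0.41 ± 0.27 and 0.36 ± 0.45 (limma adjusted p = 0.712 and 0.857). With 1 array left out, Aldh3a1 ran from 0.25 (without Control 3) to 0.67 (without Control 2). Nqo1 ran from 0.02 (without NASH 1) to 0.80 (without Control 3). Ahr itself was below the filter. Transcription factors known to act on Cyp2e1, Cyp1a2 or Por were lower for 11 of 15 tested and higher for 4, with a median of −0.24 and none called. That median was the value of the brightest Thra probe set, whose other tested probe sets differed by 0.30 and 0.05. Other tested probe sets of Foxa3, Nfe2l2 and Arnt also had the opposite sign to the brightest. Those of Nfib, Nr3c1, Cebpb, Usf1 and Hnf4a kept the sign. Foxa2, a forkhead factor of hepatocytes, differed by −0.97 ± 0.31 (limma adjusted p = 0.499), the glucocorticoid receptor Nr3c1 by −0.54 ± 0.19 (0.541) and the retinoid receptor Rxra by 0.54 ± 0.23 (0.619). Foxa2 differed by −1.34 where the wash entry was filled in and by −0.22 where it was blank. Without NASH 2, 9 of the transcription factors were lower and 6 higher, with a median of −0.13.

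Genes of the same lobular zone as Cyp2e1 and Cyp1a2 were also examined. Of 7 pericentral genes tested, 3 were higher and 4 lower, with a median of −0.20. That median was the value of the brightest Glul probe set, and the other tested Glul probe sets differed by 0.03, 0.46 and 0.35. The median was −0.0359 without Control 2, −0.10 without NASH 2, where 6 were tested, and 0.0940 without both. The glutamate transporter Slc1a2, the aminotransferase Oat and the ascorbate synthesis enzyme Gulo had the smallest p-values. They differed by −0.53, −0.42 and 0.45 (limma adjusted p between 0.654 and 0.739), and second tested probe sets of Slc1a2 and Oat had the opposite sign (0.43 and 0.25). With 1 array left out, Gulo ran from 0.0709 (without Control 3) to 0.78 (without Control 1) and Oat from −0.63 (without Control 1) to −0.23 (without Control 3). Of 12 periportal genes, 2 were higher and 10 lower, with a median of −0.35, and 5 were higher and 7 lower without Control 2, with a median of −0.17. Without both Control 2 and NASH 2, 4 were higher and 8 lower. Their median was then −0.0738, against −0.0259 over all tested probe sets. Cyp2f4, Hsd17b13, a lipid droplet dehydrogenase, and Otc of the urea cycle differed by −0.81, −0.81 and −0.70 (limma adjusted p = 0.456, 0.553 and 0.581), with a second Otc probe set at 0.08 and Otc at −0.45 without NASH 2.

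The probe sets most like each member were taken as the 3 with the highest Pearson's r over the 6 arrays among 4296 of other genes, a description with no p because the highest of many were taken. For Cyp2e1 they belonged to Pus3, Adap1 and Plb1 (r = 0.982, 0.980 and 0.956; rho = 1, 0.829 and 1). For Cyp1a2 they belonged to Higd1a, Hpcal1 and Actg1 (r = 0.980, 0.978 and 0.978; rho = 0.986, 0.928 and 0.928). For Por they belonged to Vamp2, Fev and Polr2h (r = 0.979, 0.977 and 0.974; rho = 0.943, 0.943 and 0.829). For Cyb5a they belonged to Cdh2, Pla2g4a and Gsr (r = 0.977, 0.970 and 0.967; rho = 0.943, 0.886 and 0.886). Between 22 probe sets for Cyp2e1 and 55 for Cyp1a2 had r above 0.9, and none of the other members was among the nearest 3.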

How the data were processed

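The deposited table holds 1 linear signal intensity for each probe set on each array, made with MAS5 per the submitters' processing notes. The sources used here give neither the MAS5 version nor its scaling target. Groups came from the sample titles. The 8740 probe sets that are not array controls were quantile normalized (limma 3.58.1 in R 4.3.3), an offset of 2.29, the 10th percentile of all values, was added, and log2 was taken. Fold changes refer to that scale, which makes changes of dim probe sets look smaller. The 5244 probe sets with a mean log2 above the 40th percentile (3.95) were tested with lmFit and eBayes with an intensity trend, after the test was checked on simulated data. The number of arrays, 3 per group, limits the precision. Each gene's brightest probe set gave its main value. For lists, members past the threshold were named or, if none, the 3 with the smallest p. Some other genes in the text (Cyb5r3, Sqle, Cyp51, Cyp4a1, Msmo1, Cyp17a1, Cyp1a1, Ahr, Dbp, Sds, Glul, Thra) were chosen after their values were seen. Members, lists and settings were chosen with earlier results of these data known. The within-array ratios and the list without Elovl5 were added after seeing the data. Other scalings, offsets, filters, variance models, weights, blocks and probe sets were tried, and arrays were left out. No genome, probe sequence or protein sequence was used here.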

Additional observations from a re-analysis of the deposited data

How the results depend on the processing

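No member had a limma adjusted p under 0.05 in any alternative that gave one. At an unadjusted limma p under 0.05, 3 of the 12 member probe sets were past the mark, all of Cyp1a2. The number of probe sets called, 7 of 5244 (5 higher, 2 lower), became 14 with no scaling (8 higher, 6 lower), 20 with array weights, 3 without the variance trend, 3 with the wash record as a block, 16 without both Control 2 and NASH 2, 1 where the wash entry was filled in, 14 at an adjusted p under 0.1 and 414 at an unadjusted one under 0.05. At a common median 3 were higher and 3 lower. With no filter limma called 0 (626 at an unadjusted p under 0.05), and leaving out 1 array gave 0 (without NASH 3, Control 1 or Control 3, with 262 to 506 at an unadjusted p under 0.05), 1 (without NASH 1 or Control 2) or 17 (without NASH 2). Por turned to −0.0167 with no scaling and −0.0659 with E01524cds_s_at, and ran from −0.0167 to 0.33 with 1 array left out. E01524cds_s_at ran from −0.25 to 0.11 and rc_AI137856_s_at from −0.0252 to 0.76, and E01524cds_s_at was 0.18 where the wash entry was filled in. Cyb5a turned to −0.18 with no scaling, −0.0103 at a common trimmed mean, −0.0395 at a common median, −0.0517 with array weights, −0.00208 where the wash entry was filled in and −0.13 with rc_AA817685_at, and ran from −0.16 to 0.16 with 1 array left out. For rc_AA817685_at the difference was 0.12 with array weights, 0.33 without both Control 2 and NASH 2, 0.0703 where the wash entry was filled in, and −0.29 to 0.17 with 1 array left out. The cause of these turns was not tested. With 1 array left out, Cyp2e1 ran from 0.06 to 0.39 and Cyp1a2 from 0.45 to 0.68. The samples are not stated to be paired by replicate number. Correlations of same-numbered deviations from group means were 0.05, −0.02 and 0.07. NASH 1 correlated best with Control 2 (0.08), NASH 2 with Control 3 (0.04) and NASH 3 with Control 3 (0.07). With so few arrays per group these values cannot decide whether the samples were paired. With the replicate block 1 probe set was called, and Cyp1a2 differed by 0.54 with an adjusted p of 0.635. Of 378 alternative values of the 18 list genes named by the threshold or the smallest p, 1 turned sign (Aldh3a1, −0.13 where the wash entry was blank) and 10 changed a call: 8 lost that of Scd and 2 gained one for Cyp2b2, without NASH 2 (limma adjusted p = 0.0133) and without both Control 2 and NASH 2 (0.0267). Many of the 378 could not turn sign, because a change of filter, variance model or block leaves the difference as it was.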
